A study of Rattus norvegicus with 32 samples.

Results

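The genes described are 9 listed as scavenger and endocytic receptors of liver sinusoidal endothelial cells (LSECs), which take up material from the blood: Stab1 (ENSRNOG00000018434), Stab2 (ENSRNOG00000038948), Lyve1 (ENSRNOG00000026902), Fcgr2b (ENSRNOG00000046452), Mrc1 (ENSRNOG00000018251), Cd36 (ENSRNOG00000040108), Scarb1 (ENSRNOG00000000981), Oit3 (ENSRNOG00000046365) and Gpr182 (ENSRNOG00000004311). Oit3 encodes a secreted protein, and it is counted with the receptors throughout as a member of this list. All 9 are called receptors below for short. The 9 genes were found by an exact match of the gene symbol, and each matched 1 of the 32623 genes quantified. RNA was sequenced from LSECs of rats in 32 libraries, which form a carbon tetrachloride (CCl4) experiment and a thioacetamide (TAA) experiment. The CCl4 experiment has 6 libraries of untreated healthy male Wistar Han rats, 5 after 2 weeks of inhaled CCl4 (acute injury), 5 after 6 weeks (fibrosis) and 6 after 12 to 14 weeks (cirrhosis). CCl4 is a hepatotoxin whose repeated inhalation scars the liver, and the rats of this model also had phenobarbital in their drinking water. The duration at cirrhosis comes from the description of the series, since the labels of these libraries give none. Of the TAA experiment, 5 libraries are labelled control and 5 are labelled TAA control. The study describes saline-treated and TAA-treated Sprague-Dawley rats, while the labels name Wistar Han rats for every library. Which of these groups received TAA, a second hepatotoxin, was not settled, so their difference is given as TAA control minus control and with no direction of disease. LSECs were separated by centrifugation on an iodixanol gradient with no antibody sort, and some days passed between the last dose of toxicant and isolation. The labels number the libraries of a group but do not say outright that each is another rat, so p-values measure the spread between these libraries.

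Fenestrated endothelium lines the sinusoids of the liver and clears waste macromolecules from blood by receptor-mediated endocytosis. Stabilins bind oxidised lipoproteins, collagen fragments and hyaluronan, the mannose receptor binds glycoproteins, and Fc gamma receptor IIb binds small immune complexes. Bound cargo enters through clathrin-coated pits and is degraded in lysosomes while many of the receptors return to the surface. Loss of fenestrae and of LSEC markers during liver injury is known as capillarization or dedifferentiation.

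Start-site sequence was taken from RefSeq on the assembly GRCr8, which is later than the Rnor_6.0 assembly the reads were mapped to, and 7 of the 9 receptors matched. Windows ran from 250 bases before to 20 bases after the annotated start, written 5′ to 3′ on the strand of the gene. They are shown for 4 receptors that fell together after acute injury and differed in level at cirrhosis. Stab1 lies at chr16:6367340-6367609 on the minus strand, Stab2 at chr7:23320543-23320812 on the minus strand, Mrc1 at chr17:82157475-82157744 on the plus strand and Oit3 at chr20:27953664-27953933 on the minus strand. Capitals mark matches to the ETS letters AGGAAG on either strand.
Stab1: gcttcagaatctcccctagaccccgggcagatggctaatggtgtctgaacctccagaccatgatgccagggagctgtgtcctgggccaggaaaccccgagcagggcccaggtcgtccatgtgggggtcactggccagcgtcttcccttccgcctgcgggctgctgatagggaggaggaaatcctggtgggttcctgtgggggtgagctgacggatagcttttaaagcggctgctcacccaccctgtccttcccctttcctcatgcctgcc
Stab2: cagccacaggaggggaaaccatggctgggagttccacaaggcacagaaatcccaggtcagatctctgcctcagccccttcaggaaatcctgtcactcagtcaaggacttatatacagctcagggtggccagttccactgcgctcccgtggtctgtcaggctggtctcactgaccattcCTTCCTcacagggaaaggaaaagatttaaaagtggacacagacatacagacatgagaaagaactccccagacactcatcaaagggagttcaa
Mrc1: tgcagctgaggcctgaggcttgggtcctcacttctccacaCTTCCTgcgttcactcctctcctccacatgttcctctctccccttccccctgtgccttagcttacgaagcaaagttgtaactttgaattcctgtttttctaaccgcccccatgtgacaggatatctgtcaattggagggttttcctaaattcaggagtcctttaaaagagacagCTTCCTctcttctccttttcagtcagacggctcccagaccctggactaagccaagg
Oit3: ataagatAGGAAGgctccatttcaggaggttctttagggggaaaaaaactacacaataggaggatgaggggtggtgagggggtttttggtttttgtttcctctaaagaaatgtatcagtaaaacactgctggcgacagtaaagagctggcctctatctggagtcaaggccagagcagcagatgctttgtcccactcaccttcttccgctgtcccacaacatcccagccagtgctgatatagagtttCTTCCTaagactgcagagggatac
Of the other windows, Lyve1 and Cd36 each held 1 such match and Gpr182 none, and Stab1 had none either. Matches began 72 bases before the start in Stab2, 210 and 36 bases before it in Mrc1 and 243 and 4 bases before it in Oit3. Of 33469 promoters of this length, 31.6% held an ETS match. GATA letters (AGATAA or TGATAA) were in 17.7% of promoters and AP-1 letters (TGANTCA) in 6.81%, searched on both strands, and neither was in the 7 windows of the receptors. A match in these letters describes the window and is not a binding site.

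Libraries held between 25646531 and 46464289 counts. Levels are given as CPM, the counts of a gene relative to the library total, scaled with TMM factors computed over the 22 CCl4 libraries and, separately, over the 10 libraries of the TAA experiment. Levels are therefore compared within an experiment, and never between genes, whose lengths were not used. LSEC markers outside the receptors, such as Dnase1l3 and Clec4g, summed over 12 genes to 7840 CPM in healthy, 1033 in acute, 974 in fibrosis and 5653 in cirrhosis libraries on average. The healthy libraries differed most among themselves in other cells of the liver. Markers of Kupffer cells and macrophages (14 genes) summed to between 717 and 4867 CPM in healthy libraries, 146 and 301 in acute, 65.4 and 323 in fibrosis and 1460 and 4175 in cirrhosis libraries. Hepatocyte markers (13 genes) ranged from 1359 to 30367 CPM in healthy and from 152 to 975 CPM in acute libraries. Both lists were lowest in healthy replicates 3 and 5, and results were also computed with these 2 healthy libraries alone. In bulk RNA, fewer cells of a type and less RNA per cell cannot be told apart.

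After 2 weeks of CCl4, 7 of the 9 receptors were lower than in healthy LSECs, 5 of them at 7.09% of the healthy level or less. Gpr182, Stab1, Oit3, Stab2 and Mrc1 were at 2.55%, 3.01%, 3.32%, 4.26% and 7.09% of their mean healthy level. Fcgr2b was at 21.6% and Scarb1 at 44.7%, whereas Lyve1 and Cd36 were not called. Genes were called differentially expressed (DEG) when limma-voom gave an unadjusted p under 0.05 and a change of more than 1.5-fold. By this rule 7 of 9 receptors were lower and 0 higher in acute than in healthy LSECs, and Benjamini-Hochberg adjustment left the same number. Of all 14317 genes tested, 38.3% were lower and 35.8% higher. The median log2 fold change was -3.70 over the receptors and -0.09 over all genes.

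**Figure D1:**
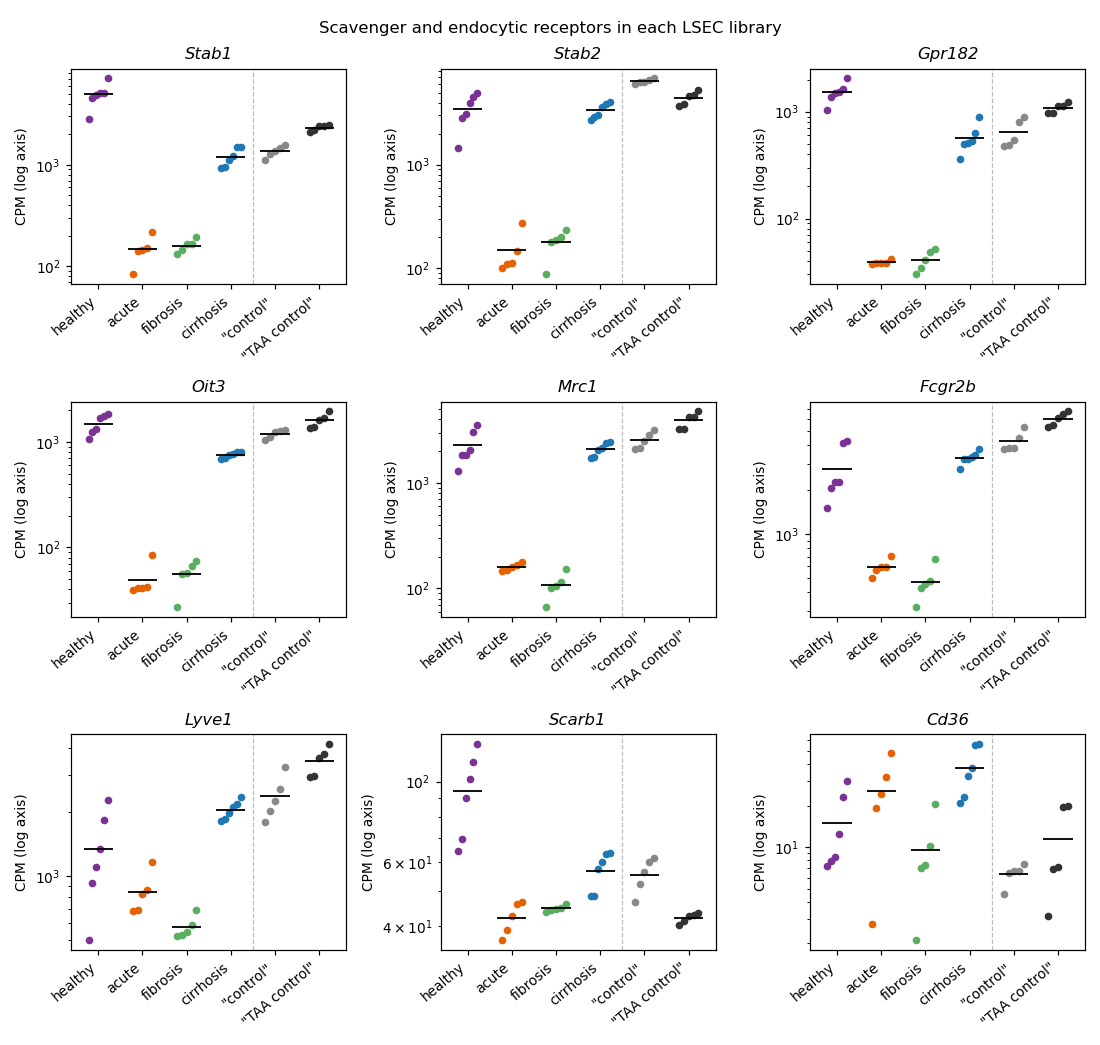
Level of each receptor in each library, as CPM on a log axis (points), with the group mean (bar). In Lyve1 and Cd36 the early stages overlap with healthy libraries, and in the other receptors acute and fibrosis libraries lie below every healthy library. How many of all genes do so was not counted. The TAA experiment right of the dashed line was scaled separately.

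Stab1 encodes stabilin-1, a large multi-domain scavenger receptor of sinusoidal endothelium and of some macrophages. In healthy libraries it ranged from 2850 to 7114 CPM with a median of 4981. Acute libraries held 152, 145, 141, 84.1 and 220 CPM, and fibrosis libraries 166, 193, 165, 144 and 132 CPM. All 10 lay below the lowest healthy library. Against healthy LSECs it fell by 5.04 on the log2 scale after acute injury (standard error, SE, 0.257, limma-voom adjusted p = 8.74e-09) and by 4.82 at fibrosis (SE 0.197, limma-voom adjusted p = 3.78e-09). At cirrhosis Stab1 ranged from 940 to 1511 CPM with a median of 1171, above every acute and fibrosis library and below every healthy one. It remained 4.11-fold lower than in healthy LSECs (log2 fold change -2.04, SE 0.215, limma-voom adjusted p = 6.72e-05).

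Stab2, the gene of the related stabilin-2 and the main hyaluronan clearance receptor of the sinusoid, fell with Stab1 but stood differently at cirrhosis. Healthy libraries ranged from 1450 to 4946 CPM with a median of 3536. Acute libraries were at 144, 108, 112, 99.6 and 275 CPM and fibrosis libraries at 197, 234, 176, 187 and 87.1 CPM. No library of either stage reached the healthy range. Its log2 fold change was -4.52 after acute injury (SE 0.331, adjusted p = 1.53e-07) and -4.18 at fibrosis (SE 0.320, adjusted p = 2.94e-07, both from limma-voom). Cirrhotic libraries, from 2729 to 4075 CPM with a median of 3310, lay inside the healthy range. There the log2 fold change against healthy LSECs was 0.02 with a 95% interval from -0.53 to 0.57 (limma-voom adjusted p = 0.953), which lies within a 1.5-fold change in either direction. It became -0.44 against healthy replicates 3 and 5 alone (adjusted p = 0.0980).

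The unequal standing of the stabilins at cirrhosis was also seen in their count ratio within each library, which no scaling of libraries touches. This ratio and that of Lyve1 to Stab2 were chosen after the levels had been seen, restate those levels, and are given without a test. Stab1 over Stab2 was 1.70 ± 1.003 in healthy (SD, n = 6), 1.06 ± 0.243 in acute (SD, n = 5), 0.979 ± 0.309 in fibrosis (SD, n = 5) and 0.361 ± 0.0648 in cirrhosis libraries (SD, n = 6). Healthy libraries spread from 0.630 to 3.53, and cirrhotic libraries from 0.259 to 0.450 lay below them all. The mean log2 ratio differed by -2.05 between cirrhosis and healthy. Acute and healthy libraries overlapped in it (difference -0.51).

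Lyve1 encodes a hyaluronan receptor of lymphatic and sinusoidal endothelium, and it kept a far larger share of its healthy level than the stabilins. Healthy libraries were widely spread, from 501 to 2291 CPM with a median of 1222. Acute libraries held 863, 823, 691, 1161 and 687 CPM, all inside that range. After acute injury its log2 fold change was -0.49 (95% interval -1.21 to 0.23, limma-voom adjusted p = 0.190). Without healthy replicate 2, the lowest, it was -0.76 and called (adjusted p = 0.0169), and it was called at -0.76 with healthy replicates 3 and 5 alone (adjusted p = 0.0189). At fibrosis the libraries were at 546, 529, 694, 591 and 520 CPM, above the lowest healthy library and below the others. This was a fall of 0.97 on the log2 scale (SE 0.321, limma-voom adjusted p = 0.0156), which was not called when libraries were scaled by their totals alone (-0.58, adjusted p = 0.136) and turned to a rise when they were scaled to pan-endothelial markers (1.64). Cirrhotic libraries, from 1817 to 2347 CPM with a median of 2048, were above every acute and fibrosis library. Lyve1 was thus lower than healthy at fibrosis and higher at cirrhosis, where its log2 fold change was 0.75 (SE 0.289, limma-voom adjusted p = 0.0400). Lymphatic endothelial markers were higher in the same libraries, Ccl21 at 1216 against 3.84 CPM (log2 fold change 8.33), Pdpn at 21.1 against 1.65 CPM (4.07) and Prox1 at 20.2 against 11.6 CPM (0.80), and their part in the level of Lyve1 was not tested. The rise of Lyve1 rested on healthy replicate 2, without which it was 0.50 (adjusted p = 0.0642), and it was 0.34 and not called with healthy replicates 3 and 5 alone (adjusted p = 0.118).

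Set against Stab2 in the same library, Lyve1 was higher at the early stages, where Stab2 stood further below its healthy level than Lyve1 did. The count ratio of Lyve1 to Stab2 was 0.399 ± 0.158 in healthy (SD, n = 6), 6.79 ± 3.31 in acute (SD, n = 5), 3.62 ± 1.45 in fibrosis (SD, n = 5) and 0.623 ± 0.126 in cirrhosis libraries (SD, n = 6). Every acute library, from 2.50 to 11.7, and every fibrosis library, from 2.26 to 5.97, was above the highest healthy one at 0.642. Differences in mean log2 ratio from healthy were 4.03 and 3.20. Cirrhotic and healthy libraries overlapped, with a difference of 0.73.

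**Figure D2:**
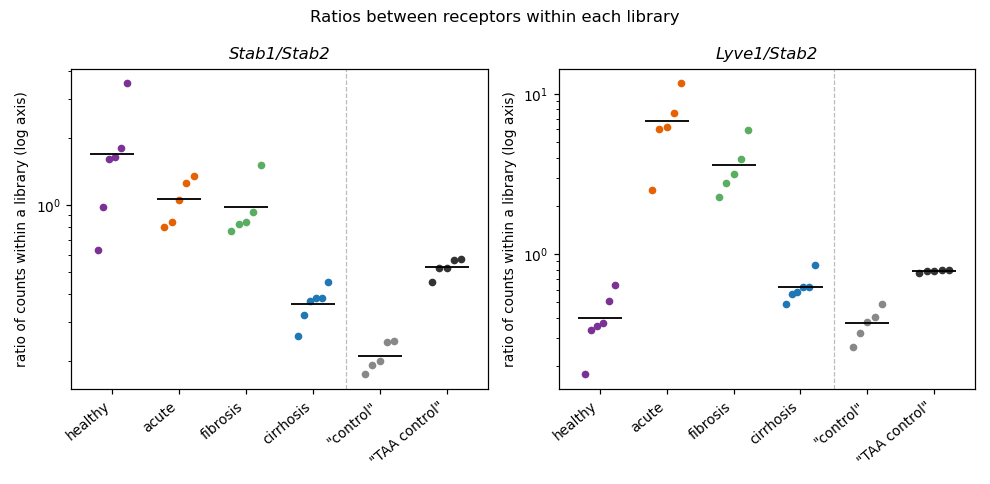
Ratio of counts of Stab1 to Stab2 (left) and of Lyve1 to Stab2 (right) within each library, on log axes, with the group mean as a bar. Cirrhotic libraries lie below all healthy libraries in the first, and acute and fibrosis libraries lie above all healthy libraries in the second.

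Fcgr2b, the inhibitory Fc gamma receptor that clears immune complexes in the sinusoid, fell less than the stabilins. At cirrhosis it lay in the healthy range. Its healthy libraries ranged from 1509 to 4298 CPM with a median of 2258. Acute libraries were at 595, 504, 571, 704 and 595 CPM and fibrosis libraries at 478, 455, 672, 427 and 319 CPM. Neither stage overlapped with the healthy libraries. Log2 fold changes were -2.08 after acute injury (SE 0.253, adjusted p = 1.15e-05) and -2.39 at fibrosis (SE 0.280, adjusted p = 9.65e-06, both from limma-voom). Cirrhotic libraries ranged from 2767 to 3776 CPM with a median of 3284. The difference from healthy was 0.33 (95% interval -0.16 to 0.83, limma-voom adjusted p = 0.229) and was called with libraries scaled by their totals (0.68, adjusted p = 0.0371) or with quality weights per library (0.60, adjusted p = 0.00380).

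Mrc1, the mannose receptor, which binds glycoproteins and collagen chains and is expressed by macrophages as well as LSECs, was cut to a narrow band. Acute libraries were at 179, 166, 150, 147 and 159 CPM, against 1289 to 3509 CPM in healthy libraries (median 1959). Fibrosis libraries held 101, 153, 106, 115 and 66.9 CPM, so the stages were close and both far below healthy LSECs. Its log2 fold change was -3.70 after acute injury (SE 0.224, adjusted p = 3.16e-08) and -4.26 at fibrosis (SE 0.266, adjusted p = 5.59e-08, both from limma-voom). At cirrhosis it ranged from 1733 to 2438 CPM with a median of 2092, with a log2 difference from healthy of -0.08 (95% interval -0.54 to 0.38, limma-voom adjusted p = 0.768).

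Cd36 and Scarb1 are class B scavenger receptors, for fatty acids and oxidised lipoproteins and for high-density lipoprotein, and both are also expressed by hepatocytes and macrophages. Cd36 was scarce and variable, with healthy libraries from 7.32 to 30.1 CPM (median 10.4). Acute libraries spread from 2.77 to 48.4 CPM and fibrosis libraries from 2.12 to 20.4 CPM, and both groups overlapped with healthy LSECs. Neither difference was called (0.57 and -0.70 on the log2 scale, adjusted p = 0.448 and 0.265 from limma-voom), but without acute replicate 8, the lowest, the acute difference was 1.22 and called (adjusted p = 0.0220). Cirrhotic libraries ranged from 20.8 to 56.0 CPM with a median of 35.2, overlapping the 2 highest healthy libraries, and Cd36 was 2.64-fold higher than in healthy LSECs (log2 fold change 1.40, SE 0.384, limma-voom adjusted p = 0.00782). Scarb1 was lower than in every healthy library at each stage. Healthy libraries spanned 64.3 to 127 CPM (median 95.9), acute libraries were at 42.5, 46.0, 38.9, 36.6 and 46.4 CPM, fibrosis libraries at 44.3, 43.6, 44.6, 45.9 and 44.9 CPM, and cirrhotic libraries spanned 48.3 to 63.5 CPM (median 58.8). Scarb1 fell by 1.09 on the log2 scale in acute LSECs (adjusted p = 0.000222), by 0.94 in fibrosis LSECs (adjusted p = 0.000503) and by 0.73 in cirrhotic LSECs (adjusted p = 0.00566, all from limma-voom). The last 2 were no longer called with libraries scaled by their totals (-0.55 and -0.38), and with libraries scaled to pan-endothelial markers the values were 1.25, 1.67 and -0.01.

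Oit3 encodes a secreted protein with a zona pellucida domain that marks LSECs among liver endothelium. In healthy libraries it ranged from 1069 to 1841 CPM with a median of 1508. Acute libraries held 41.4, 39.1, 40.8, 42.3 and 84.1 CPM, fibrosis libraries 56.4, 74.0, 66.8, 57.2 and 27.2 CPM. Both stages stood far below healthy LSECs, with replicate 8 of the acute and replicate 17 of the fibrosis group apart from the rest of their groups. Log2 fold changes were -4.92 (SE 0.221, adjusted p = 4.28e-09) and -4.69 (SE 0.244, adjusted p = 1.37e-08, both from limma-voom). Cirrhotic libraries were tightly grouped from 695 to 809 CPM (median 760) and below every healthy library, a fall of 0.99 on the log2 scale (SE 0.151, limma-voom adjusted p = 0.000251).

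Gpr182, an atypical chemokine-binding receptor of sinusoidal and lymphatic endothelium, had the lowest share of its healthy level among the 9 receptors at both early stages. Acute libraries were within a few CPM of each other, at 38.7, 38.1, 37.6, 41.9 and 38.2 CPM, and fibrosis libraries were at 30.2, 48.4, 51.4, 40.6 and 34.2 CPM. Healthy libraries ranged from 1035 to 2052 CPM with a median of 1513 and did not come near them. Against healthy LSECs Gpr182 changed by -5.23 on the log2 scale after acute injury (SE 0.158, adjusted p = 1.15e-09) and -5.13 at fibrosis (SE 0.190, adjusted p = 2.32e-09, both from limma-voom). At cirrhosis, between 364 and 886 CPM with a median of 523, it stayed below every healthy library (log2 fold change -1.47, SE 0.213, limma-voom adjusted p = 0.000185).

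At fibrosis 8 of the 9 receptors were called lower than in healthy LSECs and 0 higher, where 35.4% of 14538 genes were lower and 35.8% higher. Of all DEG of this comparison 50.3% were higher with TMM and 60.7% with libraries scaled by their totals. At cirrhosis 4 receptors were lower (Stab1, Gpr182, Oit3 and Scarb1), 2 higher (Lyve1 and Cd36) and 3 not called (Stab2, Fcgr2b and Mrc1), and 25.7% of 14789 genes were lower and 28.8% higher. Here 52.8% of DEG were higher with TMM and 71.2% with library totals, which raised the median of all genes by 0.34 on the log2 scale. With healthy replicates 3 and 5 alone, 8 receptors were lower in acute, 8 in fibrosis and 4 in cirrhotic LSECs, and in the last 1 (Cd36) was higher. The share of all genes called was not computed for these fits. The stages share their healthy controls. Summed over the 9 receptors, the level was 17874 ± 3580 CPM in healthy (SD, n = 6), 2051 ± 217 in acute (SD, n = 5), 1642 ± 271 in fibrosis (SD, n = 5) and 13429 ± 1305 in cirrhosis libraries (SD, n = 6).

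**Figure D3:**
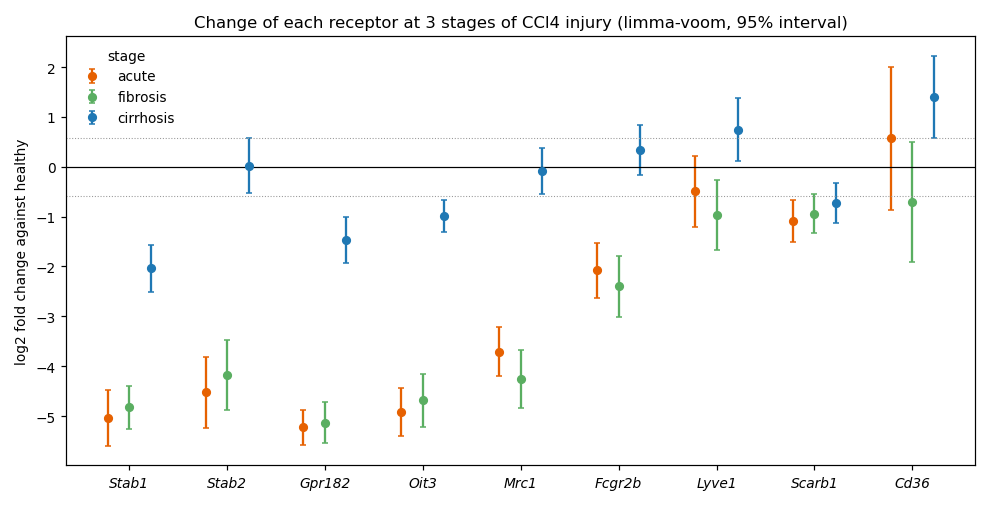
Log2 fold change of each receptor against healthy LSECs at 3 stages of CCl4 injury, with 95% intervals from limma-voom; dotted lines mark a fold-change of 1.5. Acute and fibrosis points lie together and well below zero for Stab1, Stab2, Gpr182, Oit3, Mrc1 and Fcgr2b, and cirrhosis points are spread from -2.04 for Stab1 to 1.40 for Cd36.

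The stages of injury were also compared directly. Between fibrosis and acute injury 0 of 9 receptors were called by limma-voom, edgeR or DESeq2. Unadjusted p-values were under 0.05 for 3 receptors, Lyve1 (log2 difference -0.43, adjusted p = 0.0555), Mrc1 (-0.51, adjusted p = 0.0625) and Scarb1 (0.20, adjusted p = 0.0743). Of 13931 genes, 14.3% were higher and 1.39% lower at fibrosis. Against acute injury 7 receptors were higher at cirrhosis and 0 lower, where 37.8% of 15005 genes were higher and 31.9% lower. Stab2 differed most (4.57 on the log2 scale), followed by Oit3 (3.97), Gpr182 (3.78), Mrc1 (3.65), Stab1 (3.02), Fcgr2b (2.44) and Lyve1 (1.27), with adjusted p of at most 2.16e-06 from limma-voom. Against fibrosis 8 receptors were higher and 0 lower, with 34.5% of 15186 genes higher and 29.7% lower, the eighth being Cd36 (2.16, adjusted p = 0.00157). Scarb1 was above acute and fibrosis libraries in each cirrhotic library but by less than the fold threshold (0.40 and 0.27). For levels in the CCl4 experiment, the order was acute and fibrosis below cirrhosis below healthy for Stab1, Gpr182, Oit3 and Scarb1. Stab2, Mrc1 and Fcgr2b placed cirrhosis beside healthy, and for these 7 receptors no call separated acute injury from fibrosis.

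Endothelial markers shared by all vessels fell as well, which touches every value above. Pan-endothelial markers (12 genes) summed to between 14908 and 23993 CPM in healthy, 3376 and 4492 in acute, 2741 and 3403 in fibrosis and 10307 and 12981 in cirrhosis libraries. Of these 12 genes, 10 were lower and 1 higher after acute injury, and Cldn5, at 1.79 CPM in healthy libraries, was at 0 in every acute library. They did not move as a block. Eng fell from 6734 to 546 CPM and Kdr from 3625 to 236 CPM on average, while Cdh5, the cadherin of endothelial junctions, was at 1288 ± 425 CPM in healthy (SD, n = 6) and 1589 ± 328 CPM in acute libraries (SD, n = 5), with a log2 difference of 0.39 (limma-voom adjusted p = 0.156). These 3 genes were picked after their values were seen. Macrophage markers, which LSEC preparations can carry, fell from a mean of 2731 to 240 CPM after acute injury and were at 172 CPM at fibrosis and 2383 CPM at cirrhosis. Timd4, one of them and scarce in healthy libraries too (0.336 CPM on average), was at 0 in every acute and fibrosis library. Stellate cell and fibroblast markers (11 genes) went from 525 to 1689, 1480 and 1402 CPM at the successive stages, and immediate-early genes (14 genes, induced within minutes of stress such as cell isolation) from 61010 to 2483, 3203 and 32333 CPM. The part of these cells and genes in the receptor changes was not tested.

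**Figure D4:**
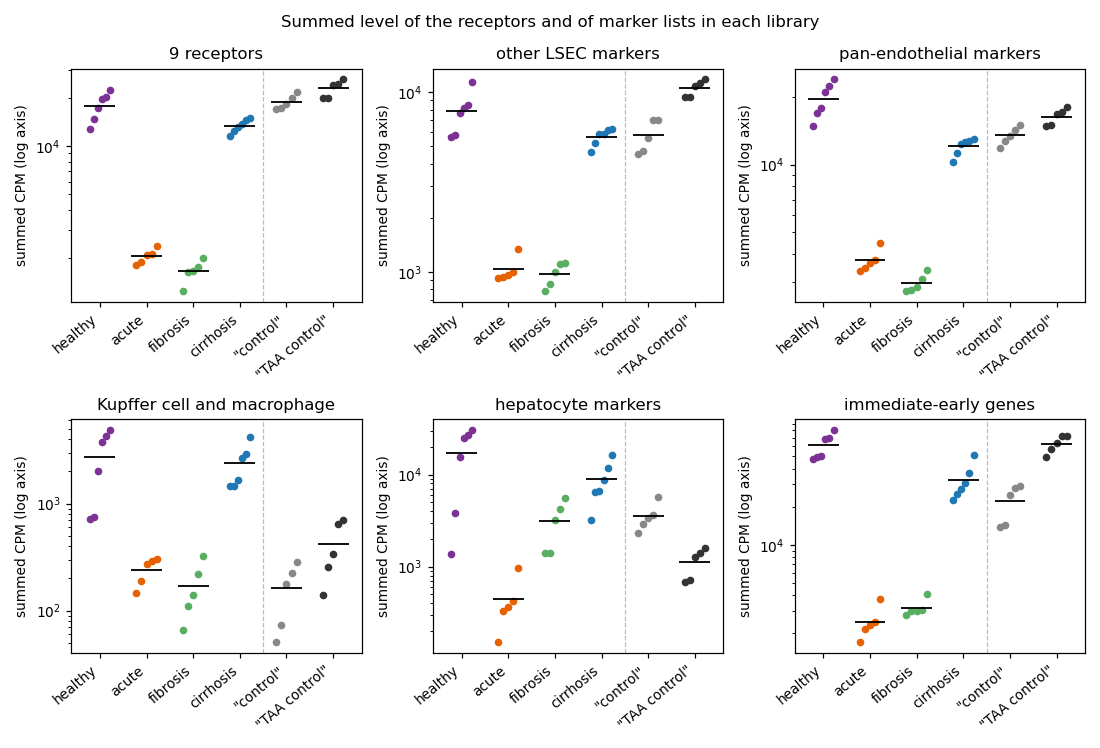
Summed CPM of the 9 receptors and of marker lists in each library, on log axes with the group mean as a bar. In the CCl4 libraries the receptors, the other LSEC markers, the pan-endothelial markers and the immediate-early genes share, in their means, the order of healthy above cirrhosis above the early stages, and hepatocyte and macrophage sums spread widely among healthy libraries.

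When libraries were scaled so that the summed pan-endothelial markers were level, the median of all genes moved on the log2 scale by 2.33 in the acute, 2.61 in the fibrosis and 0.71 in the cirrhosis comparison, and receptor values moved by about as much. Stab1, Stab2, Mrc1, Oit3 and Gpr182 were still lower than healthy after acute injury (-2.70, -2.19, -1.37, -2.59 and -2.90) and at fibrosis (-2.21, -1.57, -1.65, -2.07 and -2.51). With this scaling 10.3% of all genes were called lower and 73.4% higher after acute injury, and 5.39% lower and 79.8% higher at fibrosis. Lyve1 (1.84 and 1.64), Scarb1 (1.25 and 1.67) and Cd36 (2.93 and 1.95) were called higher, and Fcgr2b was not called (0.25 and 0.21). At cirrhosis, Stab1 (-1.33) and Gpr182 (-0.76) were still lower, and Stab2 (0.73), Lyve1 (1.45), Fcgr2b (1.04), Mrc1 (0.63) and Cd36 (2.14) were higher, where 6.78% of genes were lower and 51.5% higher. The falls of Stab1 and Gpr182 were thus called at each of the 3 stages under both scalings, whereas the calls of Lyve1, Scarb1, Cd36 and Fcgr2b at the early stages depended on the scaling.

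**Figure D5:**
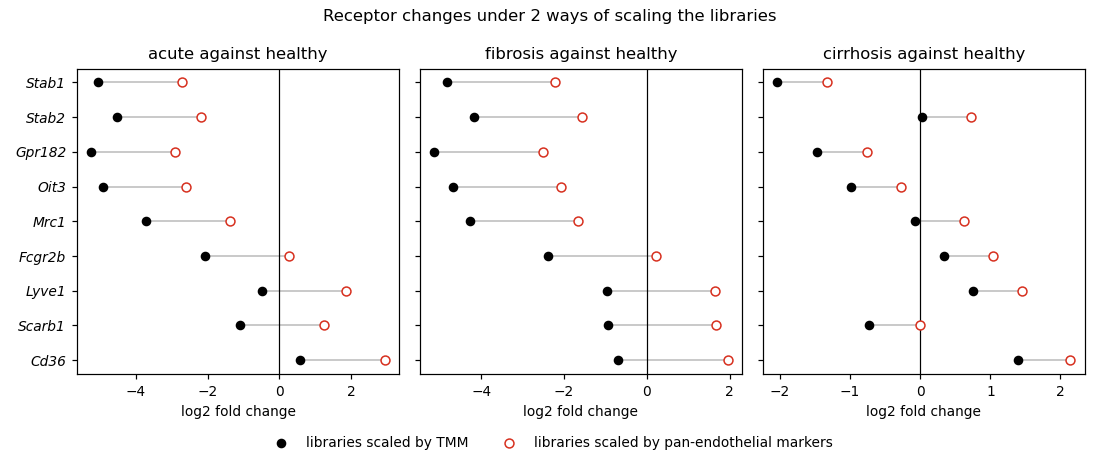
Log2 fold change of each receptor against healthy LSECs with libraries scaled by TMM (filled) or to the sum of pan-endothelial markers (open). The second scaling moves all points to the right, by the most at fibrosis, and leaves Stab1, Stab2, Gpr182, Oit3 and Mrc1 below zero at the early stages.

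Counts of other receptors for uptake, from lists chosen by function, stand against 38.3% of all genes lower and 35.8% higher after acute injury, 35.4% and 35.8% at fibrosis and 25.7% and 28.8% at cirrhosis. These lists share genes with the lists of cell type markers. Marco, Cd68, Cd163 and Cd5l of the scavenger receptors and Clec4f of the lectin-type ones are also among the macrophage markers. Asgr1 is also a hepatocyte marker here, and Clec4g, Clec1b and Ehd3 are also LSEC markers. All of these shared genes were called lower at both early stages. Of 13 other scavenger receptors tested, 9 were lower and 2 higher after acute injury and 9 and 2 at fibrosis, and of 15 tested at cirrhosis 1 was lower and 5 higher. Msr1, the class A macrophage scavenger receptor, was at 421 ± 341 CPM in healthy (SD, n = 6) and 386 ± 88.2 CPM in acute LSECs (SD, n = 5), with a log2 difference of 0.26 (adjusted p = 0.620). Olr1, the lectin-like receptor of oxidised low-density lipoprotein, was higher at each stage (log2 fold changes 1.38, 1.66 and 2.02, adjusted p at most 0.00241 from limma-voom), Cxcl16, which binds phosphatidylserine and oxidised lipoproteins, was higher at the early stages (1.40 and 1.63), and Scarf1 was lower throughout (-2.06, -2.41 and -1.55). Median log2 fold changes over this list were -1.72, -1.55 and 0.25 at the successive stages.

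Lectin-type receptors numbered 12, of which 11 were lower and 1 higher after acute injury, 9 and 1 at fibrosis, and 2 and 2 at cirrhosis. Thbd, thrombomodulin, was at 1599 ± 533 CPM in healthy, 107 ± 21.8 in acute, 57.9 ± 12.7 in fibrosis and 1382 ± 128 in cirrhosis libraries (SD, n = 6, 5, 5 and 6). Cd93 fell by 0.91 and 1.47 on the log2 scale at the early stages, Clec14a by 1.44 and 1.24 and Clec4g, a marker of LSECs, by 3.12 and 2.86. In the low-density lipoprotein receptor family (11 genes), 6 were lower and 2 higher after acute injury, 5 and 4 at fibrosis and 4 and 2 at cirrhosis. Its 4 genes of highest mean log2 CPM were lower at both early stages, Lrp5 (-3.14, -3.26 and -1.50), Sort1 (-3.17 and -3.53 at the early stages), Lrp10 (-1.76, -1.72 and -1.35) and Lrp1 (-1.63 and -1.71 at the early stages). Lrp8, named after its values were seen, was higher at each stage, with means of 3.35, 144, 150 and 11.9 CPM in healthy, acute, fibrosis and cirrhosis libraries (log2 fold changes 5.66, 5.79 and 1.99). Of 5 other Fc receptors tested, 4 were lower at each early stage and 1 at cirrhosis. Fcgrt, the neonatal Fc receptor that recycles immunoglobulin G and albumin, was at 1506 ± 407 CPM in healthy, 119 ± 27.8 in acute, 107 ± 25.6 in fibrosis and 455 ± 68.6 in cirrhosis libraries (SD, n = 6, 5, 5 and 6) and was the one lower at cirrhosis (log2 fold change -1.72, limma-voom adjusted p = 9.33e-05). Pigr, Fcer1g and Fcgr3a had log2 fold changes of -4.24, -1.76 and -1.79 after acute injury.

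Atypical chemokine receptors and hyaluronan genes included Ackr4, a scavenger of chemokines, at 249 ± 71.5 CPM in healthy and 4.98 ± 2.67 CPM in acute libraries (SD, n = 6 and 5). It fell by 5.74 on the log2 scale, and at cirrhosis it was at 290 ± 64.3 CPM (SD, n = 6). Ackr3 (-2.79) and the hyaluronidase Hyal2 (-3.47) were lower after acute injury, and Cd44, a hyaluronan receptor of many cells, was not called (0.48, adjusted p = 0.369). In this list 7 of 11 genes were lower and 0 higher after acute injury, 6 and 3 of 12 at fibrosis and 3 and 3 of 12 at cirrhosis. Of 21 adaptor and coat genes of endocytosis, 11 were lower and 5 higher after acute injury, 11 and 4 at fibrosis and 8 and 6 at cirrhosis. Among all genes 25.7% were lower and 28.8% higher at cirrhosis, and only the higher share of this list was near that. Clathrin heavy chain, Cltc, was at 550 ± 191 CPM in healthy and 750 ± 39.7 CPM in acute LSECs (SD, n = 6 and 5), a difference under the fold threshold (0.55), and Picalm, a clathrin assembly protein, was higher at every stage (1.87, 1.81 and 1.17). Ehd3, which LSECs express, fell by 3.05 and 3.10 at the early stages, and Ap2m1, a subunit of the clathrin adaptor, fell by 0.77 at cirrhosis.

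In the TAA experiment 3 of 9 receptors were called, all higher in the group labelled TAA control than in the group labelled control, and 0 were lower. Of 14376 genes, 13.5% were higher and 15.9% lower. Stab1 was at 1285, 1552, 1370, 1479 and 1104 CPM in the group labelled control and at 2402, 2387, 2479, 2208 and 2128 CPM in the group labelled TAA control, with no overlap (log2 difference 0.77, SE 0.0958, limma-voom adjusted p = 0.000136). Gpr182 was at 899, 806, 544, 485 and 476 CPM against 1138, 1125, 1233, 962 and 977 CPM, again with no overlap (0.80, SE 0.175, limma-voom adjusted p = 0.00338). Mrc1, at 3161, 2843, 2520, 2132 and 2104 CPM against 4770, 4190, 4215, 3252 and 3243 CPM, came close to overlapping, and its difference of 0.62 (limma-voom adjusted p = 0.00398) was near the fold threshold and was not called without control replicate 4 (0.56), control replicate 5 (0.56) or TAA control replicate 10 (0.55).

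Stab2 stood the other way, at 6675, 6373, 6857, 6001 and 6320 CPM in the group labelled control and 5321, 4576, 4730, 3831 and 3738 CPM in the group labelled TAA control. The groups did not overlap, and the difference of -0.55 (SE 0.103, limma-voom adjusted p = 0.00133) was under the fold threshold but over it, at -0.62, without TAA control replicate 10. The count ratio of Stab1 to Stab2 was 0.211 ± 0.0320 in the group labelled control and 0.529 ± 0.0499 in the group labelled TAA control (SD, n = 5 each), without overlap (log2 difference 1.33). Lyve1 (0.56), Fcgr2b (0.51), Oit3 (0.41) and Scarb1 (-0.39) differed by less than the fold threshold with adjusted p between 0.00206 and 0.0123 from limma-voom. Without control replicate 1 Lyve1 (0.68) and Fcgr2b (0.59) were also called, which gave 5 receptors, and Lyve1 was called without control replicate 2 (0.59) or TAA control replicate 14 (0.62) or 15 (0.62). Cd36 was low in both groups (6.40 ± 1.10 and 11.4 ± 7.88 CPM, SD, n = 5 each) and was not called (0.46, limma-voom adjusted p = 0.444). TAA control replicates 14 and 15 had the most similar counts of all pairs within groups (chi-square per degree of freedom 3.05, against at least 25.2). The labels list them as separate samples and both were used, but whether they are of separate rats is not settled by this. Counted as 1 library they gave 4 called receptors, with Lyve1 at 0.62. Other cells differed between these groups too, with stellate cell markers at 3001 and 437 CPM, macrophage markers at 162 and 417 CPM, hepatocyte markers at 3590 and 1131 CPM and immediate-early genes at 22049 and 62795 CPM in the groups labelled control and TAA control. Capillary, venous and lymphatic endothelial markers were at 3845 and 1159 CPM, among them Ccl21 at 1069 and 3.49 CPM, and LSEC markers outside the receptors at 5763 and 10534 CPM. Pan-endothelial markers were at 13481 and 16363 CPM, and with libraries scaled to these Stab2 (-0.83) and Scarb1 (-0.67) passed the thresholds while Stab1 (0.50), Gpr182 (0.53) and Mrc1 (0.34) did not. The part of other cells in these differences was not tested. Of the other Fc receptors, 4 of 5 were higher and 0 lower in the group labelled TAA control, Fcgrt by 0.63 on the log2 scale, and of the atypical chemokine and hyaluronan genes 1 of 12 was higher and 7 lower, Ackr3 with a difference of -0.82.

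For each receptor, the gene with the most similar profile over the 22 CCl4 libraries was the one with the smallest root-mean-square difference in log2 CPM after each gene was centred on its own mean, among 8537 genes. The difference was 0.15 for Scarb1 with Sidt2, 0.18 for Fcgr2b with Adgrf5, 0.20 for Stab1 with Klc3, 0.25 for Oit3 with Tspan7, 0.25 for Lyve1 with Klhl5, 0.26 for Stab2 with Ccdc80, 0.29 for Gpr182 with Tcn2, 0.33 for Mrc1 with Adamts1 and 0.55 for Cd36 with Pcsk1. Adgrf5, an adhesion receptor of endothelium, was at 2395, 539, 415 and 2985 CPM in healthy, acute, fibrosis and cirrhosis libraries on average, beside 2750, 594, 470 and 3296 CPM of Fcgr2b. Ccdc80 was at 1148, 54.3, 58.3 and 1101 CPM, the order seen in Stab2. Klc3 was at 74.6, 1.77, 1.75 and 18.5 CPM, beside 4936, 148, 160 and 1207 CPM of Stab1, with acute and fibrosis close together in both. Among the receptors themselves the closest pairs were Gpr182 and Oit3 (0.41), Oit3 and Stab2 (0.47), Mrc1 and Stab2 (0.50) and Gpr182 and Stab1 (0.51). These values cannot be set against those of the closest outside genes, which were sought among far more genes (8537). These likenesses describe the same libraries that gave the differences between stages.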

How the data were processed

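RNA of rat LSECs was sequenced by the authors from poly(A), strand-specific libraries, mapped to Rnor_6.0 with STAR and quantified with RSEM after quality control with FastQC and trimming with Trim Galore, as the submitters' processing notes and the study's methods state; versions are not given in the sources used here. The authors deposited RSEM expected counts per gene and library, without normalization or pooling. RSEM divides reads that fit several genes, so 10.3% to 12.4% of the values per library were not whole.

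Counts were rounded, genes were kept with filterByExpr, and pairs of groups were fitted with TMM and limma-voom without covariates (R 4.3.3, limma 3.58.1, edgeR 4.0.16, DESeq2 1.42.0), with the call thresholds and the model taken from the study's methods, and p-values were adjusted over all genes tested. CPM used no pseudocount, and log2 CPM for similar profiles and for samples apart used 0.5. Plots used matplotlib 3.10.9 under Python 3.11.15. The fits were tested on simulated data. Totals ranged from 28205908 to 46464289 counts in the CCl4 and from 25646531 to 32631606 in the TAA experiment.

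Receptors and lists were chosen with earlier results of these data known. All 9 receptors are named, of each other list the 4 genes with the highest mean log2 CPM over the 22 CCl4 libraries, and for each receptor the gene of most similar profile with a mean log2 CPM of at least 3; other genes were chosen after their values were seen. Alternatives were edgeR, DESeq2, adjusted p-values, no fold threshold, a single fit, other filters and scalings, quality weights, a replicate block, each library left out and, chosen after seeing the data, healthy replicates 3 and 5 alone. Healthy, acute and cirrhosis libraries share replicate numbers but not rats. No batch is named in the labels, so a batch that follows the groups cannot be told apart from them. Genome positions on Rnor_6.0 were not used here.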

Additional observations from a re-analysis of the deposited data

Results flagged for a closer look

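By Dixon's criterion (the gap of an extreme library to its neighbour over the range of its group, on the log2 CPM scale), 1 library stood apart in 4 of 54 groups of receptor values, where chance gives about 2.7. Replicate 17 was low among fibrosis libraries in Stab2 (gap over range 0.712) and in Oit3 (0.727), and it was the lowest fibrosis library in 7 of the 9 receptors. Replicate 8 was high among acute libraries in Oit3 (0.897), and replicate 4 was high among acute libraries in Gpr182 (0.740), where the whole group lay within 37.6 to 41.9 CPM. Without replicate 17 or without replicate 8, each comparison with healthy LSECs called Stab2, Oit3 and Gpr182 as before. Lyve1 was lower than healthy at fibrosis and higher at cirrhosis, and the stages differed directly by 1.77 on the log2 scale (adjusted p = 8.72e-09 from limma-voom), which became -0.18 when libraries were scaled to pan-endothelial markers.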

How the results depend on the processing

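Apart from single libraries left out, 692 receptor fold changes kept direction and side of the threshold under the alternatives, 25 came to pass it, 11 no longer passed it and 19 reversed. Scaling to pan-endothelial markers reversed Lyve1 (1.84), Fcgr2b (0.25) and Scarb1 (1.25) after acute injury, Lyve1 (1.64), Fcgr2b (0.21), Cd36 (1.95) and Scarb1 (1.67) at fibrosis, Mrc1 (0.63) at cirrhosis, Lyve1 (-0.38), Cd36 (-0.80) and Scarb1 (-1.26) between cirrhosis and acute injury, and Lyve1 (-0.18) and Scarb1 (-1.68) between cirrhosis and fibrosis; that scaling raises all genes where those markers are low. Differences near zero at cirrhosis changed sign: Stab2 with edgeR (-0.0625), DESeq2 (-0.0448) and healthy replicates 3 and 5 alone (-0.44), and Mrc1 with library totals (0.26) and quality weights (0.13); the cause was not tested. With each library left out in turn, Stab2 at cirrhosis ranged from -0.21 (without healthy replicate 1) to 0.13 and Mrc1 from -0.22 to 0.0465, with sign changes without cirrhosis replicate 1 (-0.0307), 3 (-0.0401) or 6 (-0.0132) or healthy replicate 2 (-0.0217) for Stab2, and without healthy replicate 5 (0.0135) or 6 (0.0465) for Mrc1. Receptors called between fibrosis and acute injury rose from 0 to 3 with no fold threshold, 1 with a single fit, 2 with quality weights and 0 to 2 with a library left out: 2 without acute replicate 8 (Stab2 0.64, Cd36 -1.90), 1 without fibrosis replicate 13 (Mrc1 -0.64) and 1 without fibrosis replicate 17 (Stab2 0.63). In the TAA experiment 8 were called with no fold threshold and 2 to 5 with a library left out. The share of all genes called was computed for the main fits and, against healthy, for the pan-endothelial scaling only. Same-numbered libraries did not deviate together (r 0.03 to 0.19 between acute and healthy, -0.24 to 0.29 between cirrhosis and healthy), and not each sample correlated best with its own number. A replicate block, which keeps shared numbers only, called 8 receptors after acute injury, with Cd36 at 1.31 and Lyve1 reversed at 0.0566, 6 at cirrhosis and 7 between cirrhosis and acute injury. Fibrosis and the TAA groups share no numbers with their comparison group. Receptor counts were ample except for Cd36, whose spread limits its calls.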

Other observations

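Among 12 markers of capillary, venous and lymphatic endothelium, 10 were lower and 1 higher after acute injury, 10 and 2 at fibrosis and 2 and 6 at cirrhosis. Over all genes 38.3% were lower and 35.8% higher after acute injury, 35.4% and 35.8% at fibrosis and 25.7% and 28.8% at cirrhosis. Their summed level was 3448 CPM in healthy, 293 in acute, 258 in fibrosis and 5471 in cirrhosis libraries on average, and healthy libraries (1931 to 5239 CPM) overlapped with cirrhotic ones (3885 to 7784 CPM). At cirrhosis Ccl21, a chemokine of lymphatic endothelium, rose from 3.84 to 1216 CPM and Selp, P-selectin, from 498 to 1175 CPM. Plvap, of fenestral diaphragms, fell by 0.95 on the log2 scale, while Vwf (0.09) and Efnb2 (0.48) were not called. Genes named here were chosen after their values were seen.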
